A study of Rattus norvegicus with 16 samples.

Results

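Voltage-gated calcium channels, voltage-gated sodium channels and hyperpolarisation-activated HCN channels were followed in the prefrontal cortex (PFC) of rats. The members were the genes whose symbol begins with Cacna, Cacnb or Cacng, or is Scn or Hcn followed by a digit. They had to be measured by a probe set (the group of probes that reports 1 transcript) annotated to that symbol alone, with a mean above 4 on the log2 scale over all arrays. This gave 30 genes of the 10423 genes tested, and the probe set with the highest mean stood for each gene. The symbols and the mean level chose the genes, by a rule that uses no difference between groups. The rule and the gene lists used below were set with earlier results of these data known.

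The study put acute inescapable footshock (FS) against no treatment in adult male Sprague–Dawley rats, with 8 arrays in each group and 250 ng of RNA an array. FS rats received 20 min of actual shock at 0.8 mA within a 40 min session, and tissue was taken at 0 h, immediately after it. Controls were left in the home cage, so shock, handling and the shock box cannot be told apart. Values were RMA-normalised log2 intensities from Affymetrix Rat Gene 1.0 ST arrays, on which a difference of 1 is a doubling; levels are given per gene and are not comparable between genes.

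Calcium channels of this class open when the membrane depolarises, and the calcium that enters triggers transmitter release, shapes dendritic signals and reaches gene regulation in the nucleus. A pore-forming alpha1 subunit carries the current, while alpha2delta and beta subunits bring the channel to the membrane and tune its gating. Most gamma subunits made in the brain act as transmembrane AMPA receptor regulatory proteins (TARPs), which traffic glutamate receptors and slow their closing. Sodium channel pores carry the upstroke of the action potential, and their beta subunits adjust gating and anchor the channel. HCN channels open on hyperpolarisation, carry the inward current called Ih and dampen dendritic integration in cortical pyramidal neurons.

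No member passed the test between groups after adjustment over all 11352 probe sets tested, where 0% of all probe sets passed (limma with Benjamini-Hochberg adjustment; smallest adjusted p = 0.509 among the members and 0.495 among all). At an unadjusted p under 0.05, 4 of the 30 members (13.3%) were called beside 9.32% of all probe sets. The sodium channel subunit gene Scn4b was the 1 member higher in FS rats, beside a background of 3.65%. The 3 lower members were the TARP gene Cacng3 and the calcium channel beta subunit genes Cacnb3 and Cacnb1, beside a background of 5.67%. The exact permutation test over all 12870 assignments of the arrays called 2 members, Scn4b and Cacnb1, or 6.67% beside 8.78%. These shares lay near the background, so no shift of the families as a whole is read from them. The unadjusted count of 4 became 0 once the striatal score described below entered the fit, 8 without control 6 (background 16.5%), and 1, Scn4b, without any one of controls 3, 7 and 8 (backgrounds 6.92%, 6.87% and 7.77%) and FS arrays 3 and 6 (5.71% and 5.86%). It was also 0 with the myelin score described below (background 2.60%) and with both scores (3.44%), beside 4.16% with the striatal score alone.

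Differences of the 30 members ran from −0.30 to 0.63. There were 13 members with a higher and 17 with a lower mean in FS rats, and 43.3% with a difference above 0 compared with 42.5% of all probe sets. Their median difference was −0.03, against −0.02 over all. Their median absolute difference was 0.14, against 0.07, but their median standard error (SE) was also larger, 0.12 against 0.07. Within groups, 22 of 30 (73.3%) had a residual SD above the median of all probe sets, a line that 50% of probe sets pass by construction. In 0 members were the groups free of overlap (background 0.0617%). All 8 FS arrays lay on one side of the control mean in 2 members, or 6.67% beside 4.34%: Scn4b, with all above, and Cacna1d, with all below.

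**Figure D1:**
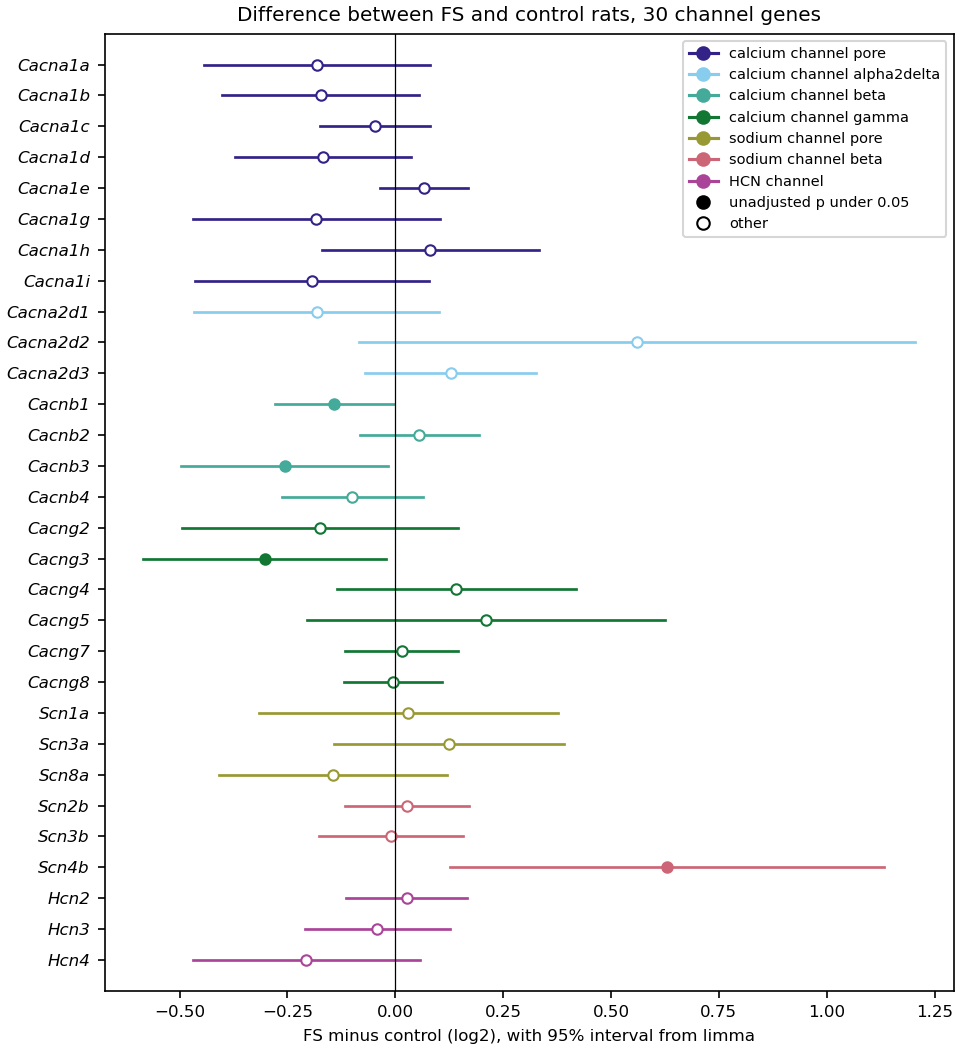
Difference between FS and control means of each of the 30 members on the log2 scale, with its 95% interval, coloured by subunit family. Scn4b and Cacna2d2 lie farthest to the right at 0.63 and 0.56, Cacng3 farthest to the left at −0.30, and most intervals cross 0.

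Among the sodium channel beta subunits, Scn4b was the member with the largest difference of all 30. Its protein, beta4, is linked to the principal sodium channel by a disulfide bond, is abundant in striatal projection neurons of rodents and promotes the resurgent sodium current. In controls its log2 value had a low of 5.43, a median of 5.84 and a high of 7.38, and in FS rats it had a low of 6.15, a median of 6.79 and a high of 7.21. The groups overlapped: control 6 lay above all FS arrays, controls 4 and 1, at 6.61 and 6.19, lay within their range, and the other 5 controls lay below every FS array. The mean was 6.06 ± 0.65 (SD, n = 8) in controls and 6.69 ± 0.37 (SD, n = 8) in FS rats, a difference of 0.63 ± 0.24 (SE), or 1.55-fold. The unadjusted p was 0.017, the exact two-sided permutation p 0.035 and the adjusted p 0.509. Scn4b was below an unadjusted p of 0.05 in all 16 fits that left out 1 array, but not with the scores of other tissue described below: its difference was 0.25 ± 0.16 with the striatal score, 0.06 ± 0.23 with the myelin score and 0.02 ± 0.16 with both. Its neighbour on the chromosome, Scn2b, encodes the other disulfide-linked beta subunit, and no gene lies between them in the current RefSeq order. Scn2b differed by 0.03 ± 0.07, with means of 8.55 and 8.58. Scn3b, whose beta3 subunit associates without that bond, differed by −0.01 ± 0.08, with means of 8.86 and 8.85. The difference between Scn4b and its relatives was not tested.

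The 3 sodium channel pores measured were Scn1a, Scn3a and Scn8a, for Nav1.1, Nav1.3 and Nav1.6. Scn8a, the main channel of the axon initial segment of adult pyramidal neurons, ranged from 7.83 to 8.60 in controls (median 8.41) and from 7.67 to 8.58 in FS rats (median 8.29). The lowest values belonged to FS array 8 and control 6, and the groups overlapped over almost the whole range. Its means were 8.34 ± 0.25 (SD, n = 8) and 8.20 ± 0.29 (SD, n = 8), a difference of −0.14 ± 0.13. Scn1a, a channel on which parvalbumin interneurons lean heavily, differed by 0.03 ± 0.16, with means of 7.48 and 7.51. Control 4 stood apart in Scn1a at 8.47, where the other controls lay between 6.91 and 7.55. In Pvalb, the parvalbumin gene, the same array was also the highest of all 16, at 7.88, with FS array 7 next at 7.71. Pvalb is 1 of the 11 interneuron genes listed below. Their mean gene-centred log2 value was 0.06 in control 4, where controls ran from −0.19 to 0.12. Scn3a, strong in the fetal brain, differed by 0.12 ± 0.13, with means of 6.71 and 6.83. A further probe set for Scn3a gave a difference of 0.00 ± 0.10 at a mean level of 6.59.

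The alpha2delta family held the member with the next largest difference, Cacna2d2. Its protein, alpha2delta-2, binds gabapentin, and its loss in mice gives ataxia and seizures. In controls the log2 value had a low of 6.19, a median of 6.33 and a high of 7.91, and in FS rats a low of 6.30, a median of 6.82 and a high of 8.44. Controls were tight apart from control 6, which held the 7.91, and the next control was at 6.52. The FS arrays were scattered, with arrays 8, 3 and 6 at 8.44, 7.88 and 7.47 and array 7 at 6.30, within the controls. The means were 6.51 ± 0.57 (SD, n = 8) and 7.07 ± 0.78 (SD, n = 8), a difference of 0.56 ± 0.31 or 1.47-fold (p = 0.085, adjusted p = 0.559, exact permutation p = 0.114). The interval of that difference ran from −0.09 to 1.20.

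Cacna2d3, whose product also serves presynaptic calcium channels, ranged from 7.95 to 8.68 in controls (median 8.17) and from 8.09 to 8.61 in FS rats (median 8.32). In 7 of 8 FS arrays it was above the control mean, and control 6 was the highest array of all. Its means were 8.20 ± 0.23 and 8.33 ± 0.16 (SD, n = 8 each), a difference of 0.13 ± 0.09. Cacna2d1, the main gabapentin receptor, went the other way by −0.18 ± 0.14, with means of 8.66 and 8.48.

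Of the 4 beta subunits, 3 were lower on average in FS rats. Cacnb3, a beta subunit of N-type channels in neurons, ranged from 8.27 to 8.76 in controls (median 8.65) and from 7.90 to 8.71 in FS rats (median 8.45). Control 6 was the only control under 8.59, and FS arrays 8, 3 and 6 lay under all controls. The means were 8.62 ± 0.15 and 8.37 ± 0.31 (SD, n = 8 each), a difference of −0.26 ± 0.11 (p = 0.038, adjusted p = 0.523, exact permutation p = 0.051). Cacnb1, known for its place in the skeletal muscle channel and made in the brain as well, ranged from 7.89 to 8.15 in controls (median 8.05) and from 7.62 to 8.06 in FS rats (median 7.93). Here FS arrays 3, 4, 6 and 8 lay under all controls, and control 6 was among the others at 8.06. The means were 8.03 ± 0.08 and 7.89 ± 0.16 (SD, n = 8 each), a difference of −0.14 ± 0.07 (p = 0.045, adjusted p = 0.528, exact permutation p = 0.047). Leaving out 1 array at a time, Cacnb1 was under an unadjusted p of 0.05 in 7 of 16 fits and Cacnb3 in 6. Cacnb4, the subunit mutated in the lethargic mouse, differed by −0.10 ± 0.08 (means 8.74 and 8.64). Cacnb2 differed by 0.06 ± 0.07 (means 7.24 and 7.30).

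The gamma family split by its members. Cacng3 encodes TARP gamma-3, a cortical AMPA receptor partner. It ranged from 9.77 to 10.26 in controls (median 10.07) and from 9.22 to 10.12 in FS rats (median 9.87). FS arrays 8, 3 and 6, at 9.22, 9.26 and 9.39, were under every control, and the other FS arrays lay within the control range. The means were 10.03 ± 0.16 and 9.73 ± 0.38 (SD, n = 8 each), a difference of −0.30 ± 0.13 or 0.811-fold (p = 0.037, adjusted p = 0.523, exact permutation p = 0.066). Cacng3 was under an unadjusted p of 0.05 in 8 of 16 fits without 1 array. Cacng2 encodes stargazin, the first TARP described. It ranged from 8.87 to 9.64 in controls (median 9.48) and from 8.57 to 9.74 in FS rats (median 9.24), with control 6 and FS arrays 3, 6 and 8 at the bottom. Its difference was −0.18 ± 0.15 between means of 9.40 ± 0.25 and 9.22 ± 0.40 (SD, n = 8 each).

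Cacng4 and Cacng5, neighbours on the chromosome with no gene between them, were higher on average in FS rats. Cacng5, a type II TARP, ranged from 5.91 to 7.35 in controls (median 6.20) and from 6.00 to 7.23 in FS rats (median 6.50). Control 1 held the highest value of all and FS array 8 the next, so the highest arrays came from both groups. The means were 6.33 ± 0.49 and 6.54 ± 0.38 (SD, n = 8 each), a difference of 0.21 ± 0.20. Cacng4, which encodes TARP gamma-4, ranged from 6.60 to 7.62 in controls (median 7.09) and from 6.69 to 7.51 in FS rats (median 7.32). Control 6 was highest and control 4 lowest, and the groups overlapped throughout. Its difference was 0.14 ± 0.13 between means of 7.10 ± 0.30 and 7.24 ± 0.27 (SD, n = 8 each). The other adjacent pair, Cacng7 and Cacng8, differed by 0.01 ± 0.06 (means 9.07 and 9.08) and −0.01 ± 0.05 (means 7.29 and 7.28). Their 95% intervals, −0.12 to 0.15 and −0.12 to 0.11, were among the narrowest of the members.

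The pore-forming calcium channel genes were mostly lower on average in FS rats, 6 of 8, with a family median of −0.17. The low-voltage-activated T-type pores open near rest and support burst firing. Among them Cacna1i ranged from 7.66 to 8.11 in controls (median 7.96) and from 7.25 to 8.15 in FS rats (median 7.84). FS arrays 3, 8 and 6 were under all controls, and FS array 2 was above them. The difference was −0.19 ± 0.13 between means of 7.96 ± 0.15 and 7.77 ± 0.37 (SD, n = 8 each; exact permutation p = 0.194). Cacna1g ranged from 5.75 to 6.67 in controls (median 6.55) and from 5.67 to 6.62 in FS rats (median 6.34). Control 6 was far below the other controls, which began at 6.43, and next to FS array 3. Its difference was −0.18 ± 0.14 between means of 6.45 ± 0.29 and 6.27 ± 0.30 (SD, n = 8 each). The last T-type gene, Cacna1h, differed by 0.08 ± 0.12 (means 6.31 and 6.39).

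The P/Q-type pore Cacna1a and the N-type pore Cacna1b, which drive release at most central synapses, differed by −0.18 ± 0.12 (means 8.36 and 8.18) and −0.17 ± 0.11 (means 7.51 and 7.34). Cacna1e, the R-type pore, differed by 0.07 ± 0.05 (means 8.09 and 8.16). Of the L-type pores, which couple activity to transcription, Cacna1d differed by −0.17 ± 0.10 (means 6.19 and 6.02). All 8 FS arrays were below the control mean in Cacna1d, but control 6, at 5.77, lay beside the lowest FS arrays, and the exact permutation p was 0.119. Cacna1c, the main L-type gene of brain and heart, differed by −0.05 ± 0.06 (means 6.47 and 6.42).

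The 3 HCN genes measured were Hcn2, Hcn3 and Hcn4. Hcn4, the slow cardiac pacemaker isoform that is sparse in cortex, ranged from 4.76 to 5.62 in controls (median 5.38) and from 4.78 to 5.49 in FS rats (median 5.02). The lowest array of all was control 4, and FS arrays ran from just above it to within the upper controls. The means were 5.31 ± 0.27 and 5.10 ± 0.27 (SD, n = 8 each), a difference of −0.21 ± 0.13 (p = 0.117, exact permutation p = 0.150). Hcn2, a widespread neuronal isoform, differed by 0.03 ± 0.07 (means 7.49 and 7.52), and Hcn3 by −0.04 ± 0.08 (means 5.36 and 5.32).

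**Figure D2:**
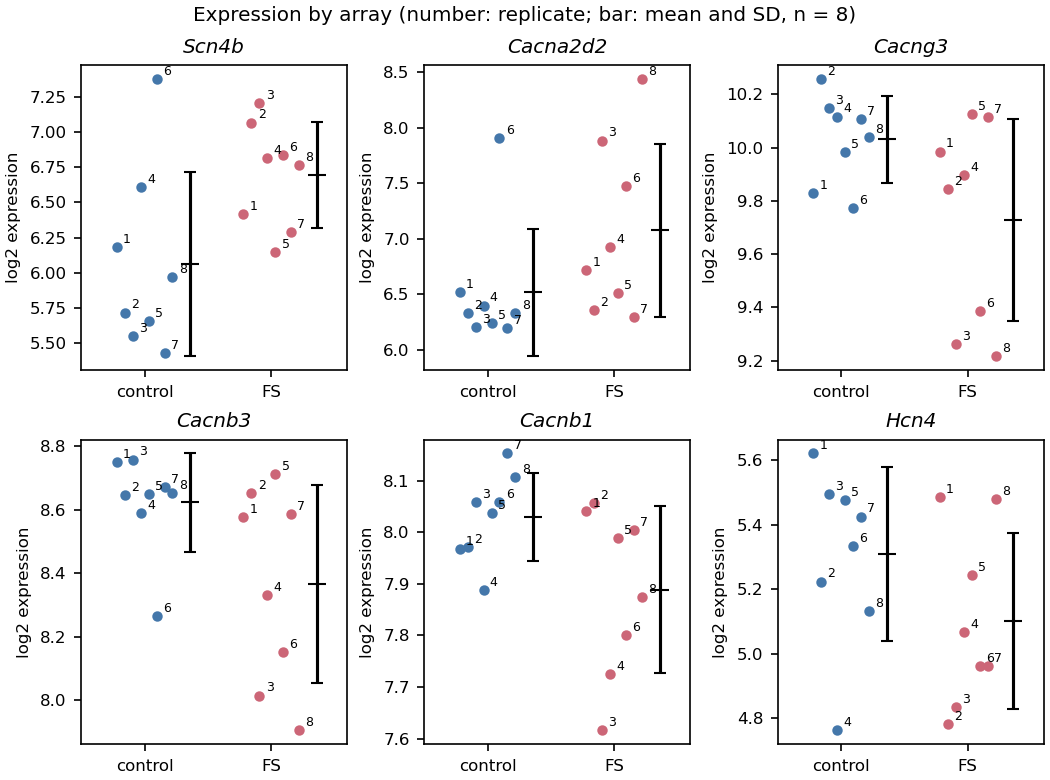
Log2 value of every array of Scn4b, Cacna2d2, Cacng3, Cacnb3, Cacnb1 and Hcn4, controls beside FS rats, with the mean and SD of each group. The groups overlap in every panel, with Scn4b the panel in which all 8 FS arrays lie above the control mean.

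A probe set annotated to a single symbol was held by 38 genes of these families, of which 30 passed the intensity filter. The 8 genes under the intensity filter had means over all arrays between 2.69 and 3.18. They were the skeletal muscle genes Cacng1 (2.86), Cacng6 (3.18) and Scn4a (2.89), the sensory neuron sodium channels Scn10a (2.69) and Scn11a (2.80), the retinal calcium channel Cacna1f (2.97), and Cacna2d4 (2.96) and Scn7a (2.76).

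Upstream sequence is shown for the 4 members with the largest differences, to set what lies before their start sites side by side. The RefSeq promoter table (build GRCr8) held 19 of the 30 members. Each stretch below is the 250 bases before the annotated start, 5′ to 3′ on the gene's strand, with each GC box (GGGCGG on either strand, a match for the SP factors) in capitals. The stretches lie at chr8:54343623-54343872 for Scn4b, chr8:116950856-116951105 for Cacna2d2, chr1:186632312-186632561 for Cacng3 and chr7:131666301-131666550 for Cacnb3, all on the plus strand.
Scn4b: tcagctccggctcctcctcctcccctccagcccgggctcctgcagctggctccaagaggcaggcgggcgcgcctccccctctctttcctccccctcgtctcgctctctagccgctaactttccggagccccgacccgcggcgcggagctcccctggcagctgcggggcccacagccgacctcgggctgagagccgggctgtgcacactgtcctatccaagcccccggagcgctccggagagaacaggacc
Cacna2d2: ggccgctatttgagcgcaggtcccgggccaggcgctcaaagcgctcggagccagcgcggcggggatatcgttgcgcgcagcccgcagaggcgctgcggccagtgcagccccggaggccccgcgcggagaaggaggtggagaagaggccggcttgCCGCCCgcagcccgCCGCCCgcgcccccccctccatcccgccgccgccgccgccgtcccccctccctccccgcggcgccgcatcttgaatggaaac
Cacng3: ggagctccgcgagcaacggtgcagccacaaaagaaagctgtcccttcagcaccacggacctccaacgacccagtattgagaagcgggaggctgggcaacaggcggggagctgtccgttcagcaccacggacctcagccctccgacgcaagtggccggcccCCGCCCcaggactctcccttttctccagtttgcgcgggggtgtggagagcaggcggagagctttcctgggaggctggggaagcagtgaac
Cacnb3: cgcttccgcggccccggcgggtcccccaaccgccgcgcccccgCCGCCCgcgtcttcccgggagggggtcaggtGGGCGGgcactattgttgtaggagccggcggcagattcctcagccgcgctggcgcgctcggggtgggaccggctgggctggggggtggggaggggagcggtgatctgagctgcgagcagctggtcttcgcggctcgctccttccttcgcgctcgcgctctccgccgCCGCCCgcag

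These stretches were rich in G and C, at 71.6% for Scn4b, 76.8% for Cacna2d2, 64.8% for Cacng3 and 76.4% for Cacnb3. Over the 19 members the median was 71.6%, against 51.2% over all 33469 promoters of the table. For each member only the promoter listed first was taken, while the values over all promoters count every entry, so the 2 sets are not fully alike. A GC box was found in 11 of the 19 (57.9%) and in 30.5% of all promoters. Cacnb3 held 3, Cacna2d2 held 2, Cacng3 held 1 and Scn4b had no match. The TATA box letters TATAAA, on either strand, were found in 1 member, Cacng2 (5.26%), and in 12.9% of all promoters. The cAMP response element TGACGTCA was found in 0 of the 19 and in 1.59% of all promoters. These matches describe the letters of the windows only.

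Levels of markers of other tissue and cell types varied between arrays, and several lists had means that differed between the groups in one direction, although no marker of any list passed the adjusted test. Of all probe sets, 42.5% had a difference above 0, and at an unadjusted p under 0.05 3.65% were higher and 5.67% lower in FS rats. A striatal score was taken as the mean of gene-centred log2 values over the 15 measured of 20 listed genes of striatal medium spiny neurons, a list that holds no member. It ran from −0.95 to 1.74 in controls and from −0.996 to 1.44 in FS rats. In controls 6 arrays lay between −0.95 and −0.66, with control 1 at 0.25 and control 6 at 1.74. In FS rats, arrays 3, 8, 6, 4 and 2 were at 1.44, 1.18, 1.00, 0.85 and 0.55, array 1 at −0.09, and arrays 5 and 7 at −0.66 and −0.996. All 15 genes had a higher mean in FS rats (median difference 0.84; 4 at an unadjusted p under 0.05), and their mean level ran from 5.79 to 8.48 in controls and from 5.74 to 8.18 in FS rats. Isl1 and Ido1 were under the filter. All 9 measured of the 11 listed genes of cortical glutamatergic neurons had a lower mean in FS rats (median −0.27; 0 at an unadjusted p under 0.05), with a score from −0.84 to 0.47 in controls and from −0.93 to 0.34 in FS rats. Slc17a7, the vesicular glutamate transporter that defines them, had a mean of 10.63 over the arrays. The 17 measured of 18 listed myelin genes were all higher on average in FS rats (median 0.40), 16 of them at an unadjusted p under 0.05, with a score from −0.61 to 0.22 in controls and from −0.03 to 0.35 in FS rats. The 7 measured genes of oligodendrocyte precursors were also all higher on average (median 0.21; 4 at an unadjusted p under 0.05), as were the 9 of meningeal fibroblasts (median 0.36; 0) and the 6 of olfactory bulb and neuroblasts (median 0.32; 1). The scores of these 3 lists ran from −0.33 to 0.14, −0.61 to 0.47 and −0.59 to 0.77 in controls and from −0.03 to 0.23, −0.69 to 1.51 and −0.54 to 0.99 in FS rats. In the fit with group and striatal score described below, 5 of these 6 genes had an upward slope past an adjusted p of 0.05 (background 8.5%). All 9 cortical glutamatergic genes had a downward slope past it (background 17.4%). The lists of interneurons, astrocytes, microglia and smooth muscle held genes on both sides, with medians of 0.08, 0.03, −0.01 and 0.04. In tissue samples like these, fewer cells of a type and less RNA per cell cannot be told apart.

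The members varied with the striatal score within the groups. In a fit with group and score together, the slope (log2 change per unit of score) passed an adjusted p of 0.05 in 20 of the 30 members, or 66.7%, beside 25.9% of all probe sets. Of these, 8 had a slope above 0 (26.7%, background 8.5%) and 12 a slope below 0 (40.0%, background 17.4%). The median absolute slope was 0.20 among the members and 0.06 over all probe sets. The count was 16 to 20 with 1 array left out. The share of all probe sets in those fits is not given here, so nothing is read from that range. It was 11 without control 6 and FS array 3 together, the arrays with the highest scores, when 11.0% of all probe sets were called.

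**Figure D3:**
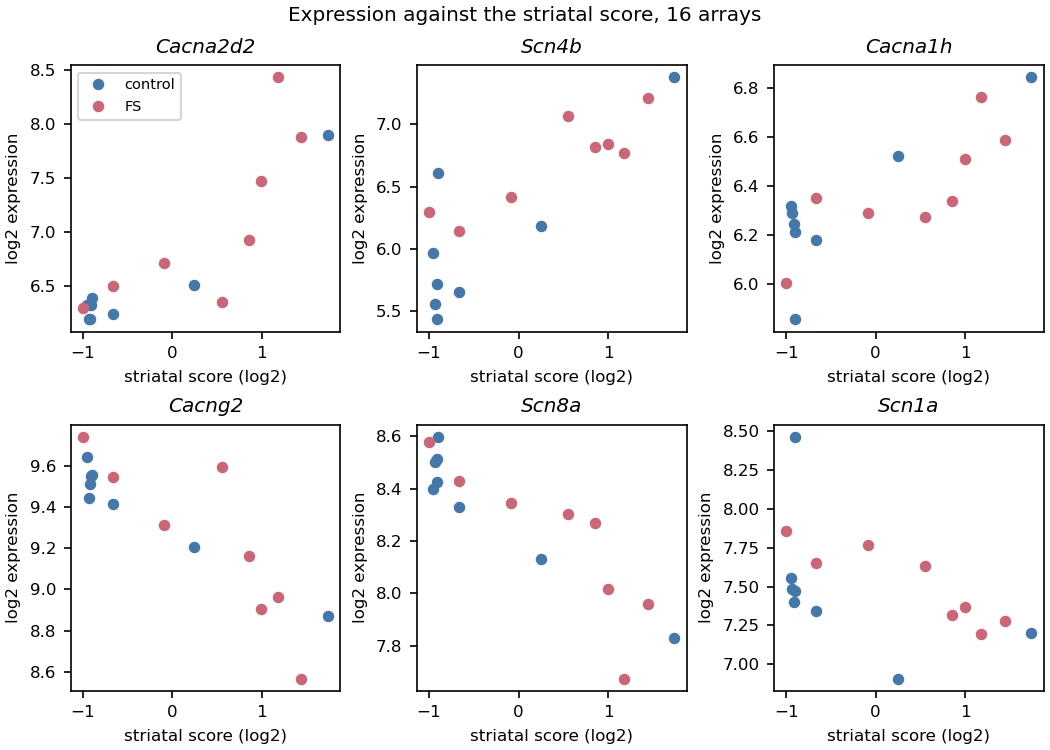
Log2 value of members against the striatal score of each array, controls and FS rats in different colours. Cacna2d2 and Scn4b run upward and Cacng2 and Scn8a downward. The value of the high-score control 6 (1.74) lies between those of high-score FS arrays in Cacna2d2, Cacng2 and Scn8a. In Scn4b it lies above every FS array, at 7.38. The low-score FS arrays 5 and 7 lie near the low-score controls in Cacng2 and Scn8a. In Scn4b they lie at 6.15 and 6.29, above the low-score controls except control 4 (6.61). In Cacna2d2 FS array 5 (6.51) lies above those controls and FS array 7 (6.30) among them.

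The slopes were upward in Cacna2d2 (0.62 ± 0.10), Scn4b (0.47 ± 0.08) and Cacng5 (0.30 ± 0.09), the 3 largest, with adjusted p of 0.000155, 0.000437 and 0.0186. Cacng4 (0.24 ± 0.05), Cacna1h (0.23 ± 0.04), Scn3a (0.22 ± 0.05), Cacna2d3 (0.13 ± 0.04) and Cacnb2 (0.10 ± 0.03) completed the upward set. The further probe set for Scn3a had a slope of 0.096 in the same fit, which did not pass (adjusted p = 0.171). The steepest downward slopes belonged to Cacng2 (−0.31 ± 0.05), Scn8a (−0.26 ± 0.04) and Cacna1g (−0.26 ± 0.05), with adjusted p of 8.45e-05, 4.92e-05 and 0.000749. Cacng3 (−0.25 ± 0.05), Cacna2d1 (−0.25 ± 0.05), Cacna1a (−0.24 ± 0.04), Scn1a (−0.24 ± 0.08), Cacna1b (−0.22 ± 0.04), Cacnb3 (−0.20 ± 0.05), Cacna1i (−0.20 ± 0.06), Cacnb4 (−0.13 ± 0.03) and Cacna1d (−0.13 ± 0.05) followed. Families were thus divided: the T-type pores had Cacna1h upward but Cacna1g and Cacna1i downward, and the TARPs had Cacng4 and Cacng5 upward but Cacng2 and Cacng3 downward. No slope passed for the 3 HCN genes or for Cacnb1, Cacna1c, Cacna1e, Cacng7, Cacng8, Scn2b and Scn3b. The slopes of single members without some arrays were examined after seeing the data. In 15 of the 20 members the call held in every fit without 1 array. It was lost in some of those fits for Cacna1d (10 of 16), Cacna2d3 (9), Scn1a (3), Cacna1i (without FS array 3) and Cacnb2 (without control 6). Without control 6 and FS array 3 together it was lost for those 5 and also for Cacnb3, Scn3a, Scn4b and Cacna1g. The slope was then −0.20 in Cacnb3, 0.20 in Scn3a, −0.18 in Cacna1i, −0.34 in Scn1a, 0.32 in Scn4b and 0.07 in Cacnb2. In these it was within 1.5 times of the slope over all arrays. It was smaller by more than that in Cacna1g (−0.13), Cacna1d (−0.03) and Cacna2d3 (0.01).

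Fitted in each group alone, the slope had the same sign in both groups in 26 of 30 members (86.7%), compared with 75.4% of all probe sets. The slopes in controls rest largely on control 6 (score 1.74). Every other control except control 1 (0.25) had a score of −0.66 or lower. In Cacna2d2 it was 0.57 in controls and 0.69 in FS rats. The 4 exceptions were Cacng7, Cacng8, Hcn2 and Hcn4, whose slopes all lay near 0. In 23 of the 30 (76.7%) the slope had the sign of the FS difference. The score was itself higher on average in FS rats, so part of this agreement is built in. The share over all probe sets was not taken, and nothing is read from the count.

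**Figure D4:**
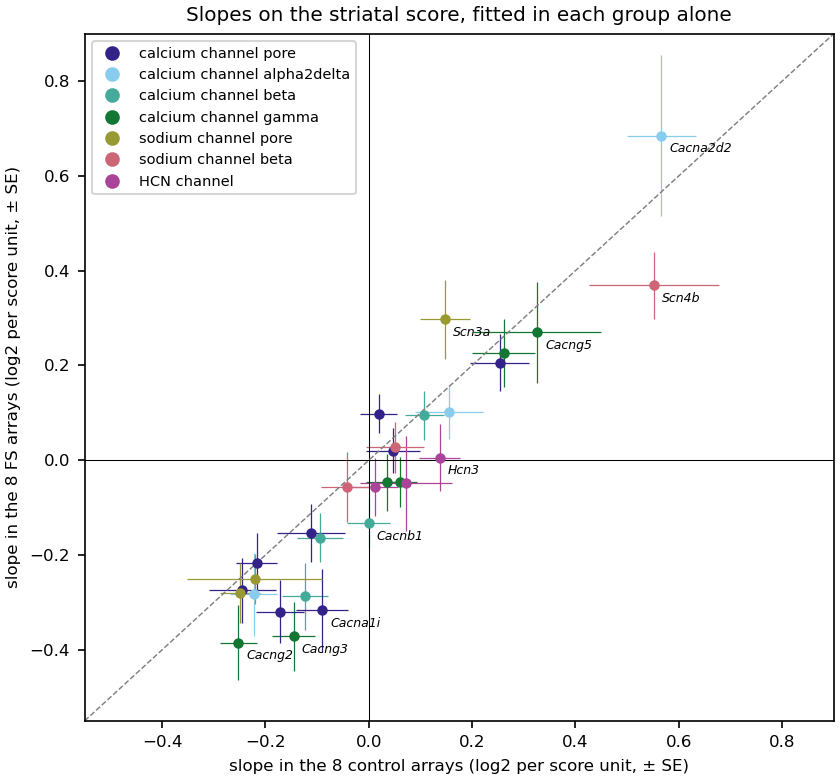
Slope on the striatal score fitted in the 8 FS arrays against the slope in the 8 control arrays, each with its SE, coloured by family. Points gather along the diagonal, from Cacng2 at the lower left to Cacna2d2 at 0.57 and 0.69.

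With the score in the fit, the difference of Scn4b was 0.25 ± 0.16, that of Cacna2d2 0.05 ± 0.19, that of Cacng3 −0.10 ± 0.09 and that of Cacnb3 −0.09 ± 0.09. Hcn4, with a slope of 0.02 ± 0.07, was at −0.22 ± 0.14, and Cacnb1 was at −0.09 ± 0.07. With the myelin score in its place, the differences were 0.06 ± 0.23 in Scn4b, 0.10 ± 0.37 in Cacna2d2, −0.13 ± 0.16 in Cacng3, −0.11 ± 0.14 in Cacnb3, −0.10 ± 0.09 in Cacnb1 and −0.15 ± 0.16 in Hcn4. With both scores Scn4b was at 0.02 ± 0.16 and Cacna2d2 at 0.04 ± 0.22. The scores differed in mean between the groups, −0.41 in controls and 0.41 in FS rats for the striatal and −0.19 and 0.19 for the myelin score, so these fits assign to them part of any group difference that runs the same way. The part of striatal tissue and of myelin in these differences was not tested.

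**Figure D5:**
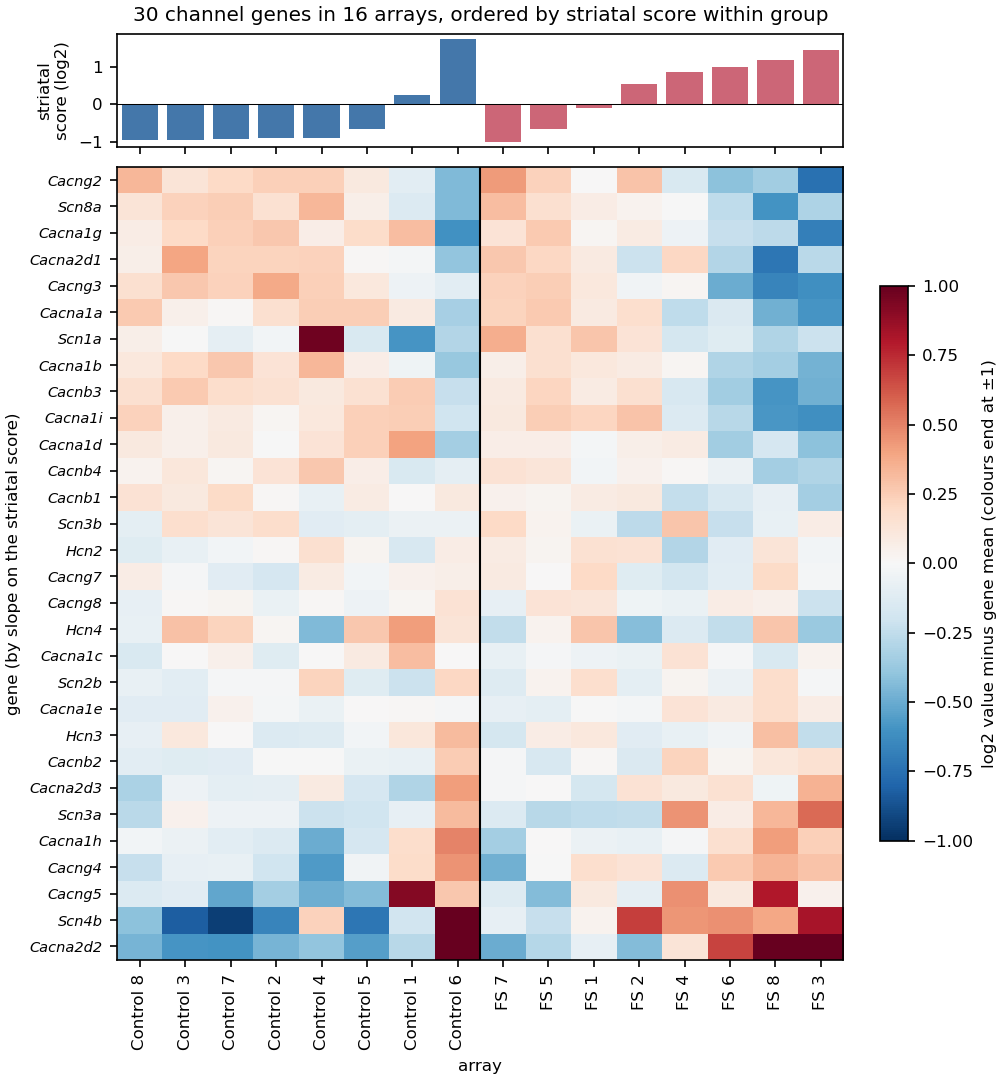
Values of the 30 members on the 16 arrays, each gene centred on its mean over all arrays (log2 units), with arrays ordered within each group by striatal score. The high-score arrays of both groups, control 6 and FS arrays 3, 6 and 8, show Cacna2d2 above its mean and Cacng2, Cacng3 and Scn8a below theirs.

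Genes that work with these channels were taken from 6 lists. In none did a gene pass the adjusted test, and 2 of the 50 genes measured (4.00%) were under an unadjusted p of 0.05, beside 9.32% of all probe sets. Gem, a small GTPase of the RGK group that binds beta subunits and inhibits calcium channels, was 0.32 ± 0.08 higher in FS rats, with means of 4.36 in controls and 4.69 in FS rats (p = 0.00113, adjusted p = 0.495, exact permutation p = 0.0014). Its level was close to the filter of 4, and its slope on the striatal score was −0.07 (adjusted p = 0.235). Shisa6, which holds AMPA receptors at synapses, was 0.36 ± 0.14 higher, with means of 6.27 and 6.64 (p = 0.0167, adjusted p = 0.509, exact permutation p = 0.0286).

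The remaining partner genes stayed above that threshold. Among calcium channel regulators such as the Rims and the SNARE proteins, 1 of 11 measured genes was called higher (Gem) and 0 lower, with a median difference of −0.08. Among other AMPA receptor auxiliary proteins it was 1 of 4 (Shisa6), with a median of −0.05. No gene was called of 11 sodium channel partners (ankyrins, intracellular FGFs and adhesion proteins; median −0.04), 3 HCN partners (median 0.00), 4 genes of the NALCN leak channel complex (median 0.01) or 17 intracellular calcium channels and pumps (median −0.02). The median over all probe sets was −0.02.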

How the data were processed

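RNA from the PFC of 8 control and 8 FS rats was hybridised to Affymetrix Rat Gene 1.0 ST arrays. The authors applied RMA in oligo (1.58.0) to the scanner files, and the deposited values are log2 intensities, used as given. Of 29214 probe sets, 18644 had a single symbol in the platform annotation, 962 several and 9608 none; 18460 of those with a single symbol were found in RefSeq (GRCr8) by gene ID. Probe sets with a single symbol and a mean above 4 (11352) were fitted with limma (version 3.58.1, R 4.3.3; lmFit and eBayes, group as the only term), with Benjamini-Hochberg adjustment over all of them and a threshold of 0.05. Exact permutation tests were two-sided over 12870 assignments, with a smallest possible p of 0.000155. Array medians were 4.05 to 4.15 and correlations between arrays 0.981 to 0.997; 0 pairs of arrays were identical. Precision is limited by the number of arrays. The labels do not say beyond replicate numbers how samples were separated, so p-values measure the spread between these samples.

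All members were named with level and difference; array ranges were given for those with an unadjusted p under 0.05, the 5 highest and 5 lowest differences and the 3 largest slopes in each direction, and partner genes were named at an unadjusted p under 0.05. Members and lists were chosen with earlier results of these data known. Alternatives were array weights, centred or quantile-normalised arrays, other filters, covariates, a replicate block and arrays left out. The scripts were tested on simulated data.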

Additional observations from a re-analysis of the deposited data

Results flagged for a closer look

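In 6 of 60 sets of 8 values (30 members in 2 groups), the highest or lowest array stood apart from the rest by Dixon's test; chance flags about 1 in 20 such sets. Control 6, the array with the highest striatal score (1.74), stood apart in 5 of them. It was at 7.91 in Cacna2d2, where the other controls lay between 6.19 and 6.52, and at 7.52 in Cacnb2 (others 7.15 to 7.27). It was at 8.27 in Cacnb3 (others 8.59 to 8.76), 7.94 in Cacna1a (others 8.28 to 8.53) and 5.75 in Cacna1g (others 6.43 to 6.67). Control 4 stood apart in Scn1a, at 8.47 with the others between 6.91 and 7.55. It also held the highest Pvalb value, 7.88, beside 7.71 in FS array 7. Its score over the 11 interneuron genes was 0.06, where controls ran from −0.19 to 0.12. The part of tissue composition in these values was not tested.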

How the results depend on the processing

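No member passed the adjusted test under any of the 29 alternatives. The members tested were 38 without the filter on low values, 31 probe sets when all of a member were kept, and 30 in the other alternatives. The unadjusted count of 4 was 0 with the striatal score, the myelin score or both as covariates (background 4.16%, 2.60% and 3.44%), 7 without control 6 and FS array 3 together (10.8%), and 1 to 8 with 1 array left out. The count of members with a higher mean was 11 to 15 and their median difference −0.04 to −0.01 with 1 array left out. The count of slopes called was 11 without control 6 and FS array 3 (background 11.0%). It was 16 to 20 with 1 array left out, a range given without the shares of all probe sets, so nothing is read from it. All fits of single members' slopes without arrays were added after seeing the data. The 2 of 50 partner genes at an unadjusted p under 0.05 (background 9.32%) became 9 with array weights (13.7%), 1 with a filter at 5 (9.73%), 1 with the myelin score (2.60%), 1 with both scores (3.44%), 8 without control 6 and FS array 3 (10.8%), and 2 to 10 with 1 array left out (10 without control 6, 16.5%). The scores differ in mean between the groups, so a fit that includes them assigns to them a share of the contrast; the cause was not tested.

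The labels do not say whether equal replicate numbers pair the samples. The correlations differed in sign between numbers and do not decide it. Deviations of same-numbered arrays correlated between −0.313 and 0.492, 4 of 8 pairs were over 0.1, and only replicate 7 correlated best with its own number. With the replicate block, 0 members passed the adjusted test, 5 were at an unadjusted p under 0.05 and 4 partner genes were called (background 10.9%).

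Of the 30 members, 11 kept the sign of their difference under every alternative. With arrays centred on their medians it turned to 0.0127 in Cacng8 and 0.00701 in Scn3b. With quantile normalisation it turned to 0.0142 in Cacng8 and 0.00479 in Scn3b. With array weights it turned to 0.0242 in Cacng8. With the striatal score it turned to −0.108 in Cacna1h, 0.0291 in Cacna1g, −0.059 in Cacng4, −0.0352 in Cacng5, −0.0276 in Cacnb2, 0.0142 in Cacna1a, 0.00464 in Cacna1b, 0.00395 in Cacnb4, −0.0528 in Scn3a, 0.0231 in Cacna2d1, 0.0715 in Scn8a, 0.0822 in Cacng2, 0.0293 in Scn3b and −0.00518 in Scn2b. With the myelin score it turned to −0.0799 in Cacng7, −0.0175 in Cacna1h, 0.0692 in Cacna1g, −0.026 in Cacng5, −0.0463 in Cacnb2, 0.0277 in Cacna2d1, 0.0354 in Scn8a, −0.00476 in Hcn2, 0.0254 in Cacng2, 0.106 in Scn3b and −0.0448 in Scn2b. With both scores it turned to −0.0748 in Cacng7, −0.045 in Cacna1h, 0.0929 in Cacna1g, −0.0561 in Cacng5, −0.0555 in Cacnb2, 0.0104 in Cacna1b, 0.0524 in Cacna2d1, 0.0633 in Scn8a, −0.000425 in Hcn2, 0.0594 in Cacng2, 0.107 in Scn3b and −0.0468 in Scn2b. Without control 6 and FS array 3 it turned to 0.0453 in Cacng8 and 0.0326 in Hcn3. With 1 array left out the sign changed in Cacng7 (−0.013 to 0.0416), Cacng8 (−0.0248 to 0.0247), Hcn3 (−0.0875 to 0.000496), Scn1a (−0.0516 to 0.171), Scn2b (−0.00106 to 0.0614) and Scn3b (−0.0514 to 0.0254).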
